A study of Mus musculus with 13 samples.

Results

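Stellate cell and fibroblast identity genes were examined in cultured mouse hepatocytes from injured liver. The set held 10 genes (Pdgfra, Pdgfrb, Thy1, Reln, Lrat, Dcn, Lum, Hgf, Vim and S100a4) of the 27141 genes listed in the tables, taken by gene symbol. The genes were chosen by name with values of these same libraries already known, among them those of Pdgfra, Pdgfrb and Thy1, so the levels and fold changes of the 10 genes are given as a description and carry no p-value. All 10 genes passed the filter on low counts, which left 19884 genes tested.

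The cells were damaged hepatocytes (dHeps), labelled as WT hepatocytes from the livers of mice injured with CCl4, and every group was kept for 16 days in serum-free Hepatocyte Maintenance Medium. The control group received DMSO, the solvent. The 5C group received 5 compounds together. GSK429286A (G) inhibits ROCK and CID755673 (C) inhibits protein kinase D. ETC-1002 (E) turns on AMPK, and forskolin (F) turns on adenylate cyclase and so raises cAMP. Salidroside (S) is a glycoside from the plant Rhodiola. The groups 5C-G, 5C-C, 5C-E, 5C-F and 5C-S each lacked the compound named after the hyphen. There were 2 libraries, called A and B, in each group except 5C-S, which had 1. No label gives the age of the mice. The study describes its replicates as biologically separate, and the labels do not say whether animals or cultures were separate. The p-values of other genes and the standard errors therefore rest on spread between libraries, shared over all groups in a single fit. That spread was uneven. Its chi-square per degree of freedom within a group was 8.01 in DMSO, 14.1 in 5C and 28.9 in 5C-E. It was 62.9 in 5C-F, 75.7 in 5C-C and 86.6 in 5C-G. Standard errors and p-values can thus be too small for comparisons with 5C-F, 5C-C or 5C-G. The isolation used collagenase and pronase perfusion with no sort described for these samples, so other liver cells could be carried along. In separate mice with traced hepatocytes, the study describes cells of a hepatocyte-enriching isolation as mostly hepatocyte-derived before culture. In such bulk RNA fewer cells of a type and less RNA per cell cannot be told apart.

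Hepatic stellate cells are the vitamin A-storing pericytes of the liver sinusoid, and after chronic injury they turn into collagen-producing myofibroblasts. Pdgfra and Pdgfrb are receptor tyrosine kinases for platelet-derived growth factors. Pdgfrb is a classical marker of stellate cells and pericytes, and Pdgfra marks fibroblasts more widely. Thy1 is a surface glycoprotein of portal fibroblasts and of some lymphocytes. Reln encodes the secreted glycoprotein reelin and Lrat the enzyme that esterifies retinol for storage, and both are used to mark stellate cells. Dcn and Lum encode small leucine-rich proteoglycans that bind collagen fibrils. Hgf is the hepatocyte growth factor, a mitogen that stellate cells supply to hepatocytes. Vim is the intermediate filament protein of mesenchymal cells, and S100a4, also called fibroblast-specific protein, is a calcium-binding protein found in fibroblasts and in macrophages.

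Promoters of 6 of the 10 genes were found in the RefSeq table of build GRCm38.p6, and those of Pdgfra, Reln and Lrat are printed because these genes varied most between libraries. Each run holds the 250 bases before the start site, 5′ to 3′ on the strand of the gene, with capitals marking matches on either strand to the motifs searched. The Pdgfra run lies at chr5:75152001-75152250 on the plus strand, the Reln run at chr5:22344706-22344955 on the minus strand and the Lrat run at chr3:82903975-82904224 on the minus strand.
Pdgfra: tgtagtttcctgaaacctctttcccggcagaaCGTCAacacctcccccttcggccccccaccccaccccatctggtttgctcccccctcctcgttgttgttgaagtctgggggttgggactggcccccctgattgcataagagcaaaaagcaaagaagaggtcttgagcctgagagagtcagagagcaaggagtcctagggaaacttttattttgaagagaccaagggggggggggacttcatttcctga
Reln: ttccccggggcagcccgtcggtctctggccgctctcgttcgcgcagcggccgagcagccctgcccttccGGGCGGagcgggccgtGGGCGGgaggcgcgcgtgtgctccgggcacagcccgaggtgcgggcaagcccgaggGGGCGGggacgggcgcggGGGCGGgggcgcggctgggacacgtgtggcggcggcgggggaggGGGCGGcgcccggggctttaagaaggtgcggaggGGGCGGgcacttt
Lrat: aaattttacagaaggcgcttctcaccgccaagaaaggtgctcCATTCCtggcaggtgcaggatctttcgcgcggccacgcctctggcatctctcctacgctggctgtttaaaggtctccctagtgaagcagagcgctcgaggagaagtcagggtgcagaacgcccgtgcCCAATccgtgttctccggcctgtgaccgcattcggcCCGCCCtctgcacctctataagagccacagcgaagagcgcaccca

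The motifs searched were the cAMP response element TGACGTCA and its shorter form TGACG, which lies inside the whole element, the TATA box TATAAA, the CCAAT box CCAAT, the GC box GGGCGG, the TEAD motif GGAATG and the CArG box by name. The Pdgfra run held 1 match to the shorter cAMP response element, which 17.8% of the 32851 promoter windows of the same length held. The Reln run held 6 GC boxes, where 32.7% of windows held at least 1, and its GC content was 80.0% against 54.4% for Pdgfra and 59.2% for Lrat. The Lrat run held 1 GC box, 1 CCAAT box (in 33.8% of windows) and 1 TEAD motif (in 12.6%). No match to the whole cAMP response element (1.55% of windows), the TATA box (12.4%) or the CArG box (1.47%) stood in these 3 runs. These are matches of letters and are not known to be sites in these cells.

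Pdgfra was higher with 5C and lower again where G or C was left out. The gene spans chr5:75311994-75358876 on the plus strand of GRCm39, where a lncRNA lies antisense to it. Its levels, in FPKM (fragments per kilobase of gene, scaled to the library total), were 11.5 and 11.1 in DMSO, 31.2 and 30.2 in 5C, 9.29 and 4.72 in 5C-G, 11.2 and 9.19 in 5C-C, 32.2 and 27.1 in 5C-E, 18.1 and 15.3 in 5C-F and 25.2 in 5C-S. Both 5C libraries lay above all libraries of DMSO, 5C-G, 5C-C, 5C-F and 5C-S and overlapped with 5C-E alone. The fitted log2 fold change of 5C against DMSO was 1.36 ± 0.22 (SE). Against 5C, the log2 fold change was -1.43 ± 0.22 in 5C-C, -2.02 ± 0.22 in 5C-G, -0.77 ± 0.22 in 5C-F, -0.12 ± 0.22 in 5C-E and -0.30 in the single 5C-S library. DMSO, 5C-C and 5C-G were neighbours at the low end of the order with overlapping libraries. With an offset for GC content and transcript length the 5C-C value was -0.97.

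Pdgfrb did not follow Pdgfra. Its FPKM was 11.9 and 10.7 in DMSO, 12.3 and 13.4 in 5C, 18.0 and 15.5 in 5C-G, 10.8 and 11.1 in 5C-C, 18.9 and 20.5 in 5C-E, 10.2 and 12.4 in 5C-F and 18.9 in 5C-S. The highest library stood 2.02-fold above the lowest, compared with 6.82-fold for Pdgfra. The 5C-E, 5C-S and 5C-G libraries lay above all others, and the libraries of 5C, 5C-F, DMSO and 5C-C overlapped from each neighbour to the next. The log2 fold change of 5C against DMSO was 0.11 ± 0.16, and against 5C it was 0.55 ± 0.16 in 5C-E, 0.51 ± 0.16 in 5C-G, -0.06 ± 0.16 in 5C-C and -0.09 ± 0.16 in 5C-F.

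Thy1 (chr9:43954332-43959880 in GRCm39) ran opposite to Pdgfra between DMSO, 5C and 5C-G. It measured 12.8 and 12.3 FPKM in DMSO, 3.03 and 3.86 in 5C, 13.1 and 13.5 in 5C-G, 5.32 and 5.77 in 5C-C, 3.75 and 5.21 in 5C-E, 2.87 and 3.62 in 5C-F and 3.80 in 5C-S. The DMSO and 5C-G libraries stood apart at the high end, 5C-C came next without overlap, and 5C-E, 5C-S, 5C and 5C-F overlapped at the low end. The log2 fold change was -1.94 ± 0.23 for 5C against DMSO and 2.09 ± 0.23 for 5C-G against 5C. Against 5C it was 0.85 ± 0.23 in 5C-C, 0.01 ± 0.23 in 5C-F and 0.31 ± 0.23 in 5C-E. Without 5C library B the 5C-C value was 1.08.

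**Figure D1:**
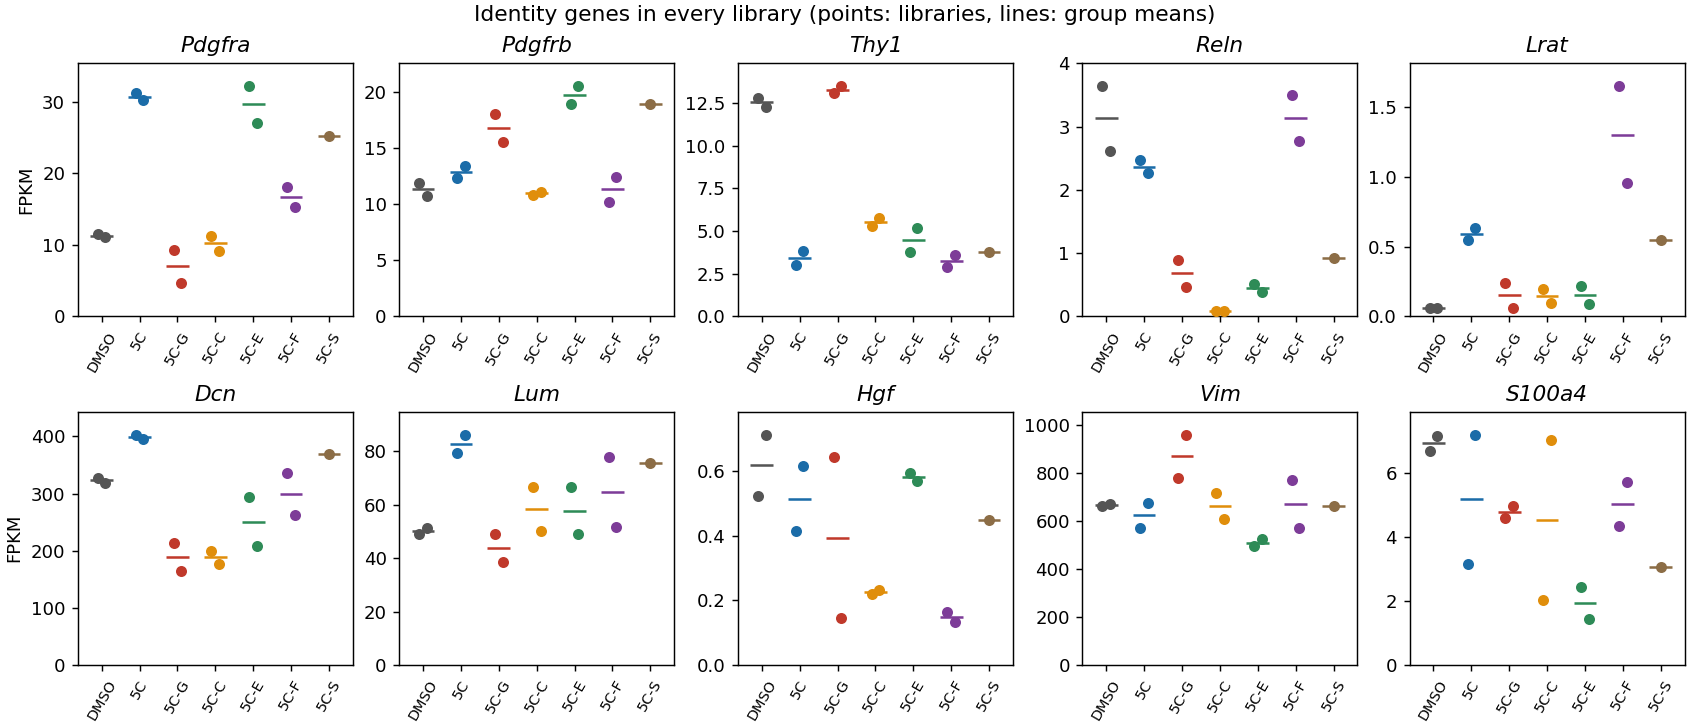
FPKM of the 10 identity genes (vertical axes, linear from 0) in each library (points) with group means (lines) for the 7 groups. Pdgfra peaked in 5C and 5C-E, Thy1 in DMSO and 5C-G, and Reln was near 0.0868 FPKM in 5C-C.

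Set against each other within a library, Pdgfra was higher relative to Pdgfrb with 5C than in the solvent. The Pdgfra to Pdgfrb ratio of FPKM was 0.974 and 1.04 in the DMSO libraries, 2.54 and 2.25 in 5C, 0.515 and 0.305 in 5C-G, 1.04 and 0.825 in 5C-C, 1.70 and 1.32 in 5C-E, 1.78 and 1.24 in 5C-F and 1.34 in 5C-S. Pdgfra exceeded Pdgfrb most in 5C, and Pdgfrb exceeded Pdgfra in both 5C-G libraries. The level of such a ratio rests on the length used for each gene, here 10041 bases for Pdgfra and 5487 for Pdgfrb. With the longest transcripts of the annotation (7309 and 6077 bases), an alternative chosen after seeing the data, the ratio would be 1.48 and 1.59 in DMSO and 0.784 and 0.464 in 5C-G, while differences between groups would not change. From DMSO to 5C the log2 ratio went up by 1.25, where the pooled SD over 2 libraries a group was 0.10. Relative to 5C it changed by -1.37 (SD 0.19) in 5C-C, -2.59 (SD 0.39) in 5C-G, -0.69 (SD 0.28) in 5C-F and -0.67 (SD 0.20) in 5C-E. In 5C-E the lower ratio went with more Pdgfrb and about the same Pdgfra, and in 5C-F with less Pdgfra and about the same Pdgfrb.

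The Pdgfra to Thy1 ratio spanned a wider range. It was 0.900 and 0.904 in DMSO, 10.3 and 7.82 in 5C, 0.711 and 0.349 in 5C-G, 2.11 and 1.59 in 5C-C, 8.60 and 5.20 in 5C-E, 6.31 and 4.24 in 5C-F and 6.65 in 5C-S. From DMSO to 5C the log2 ratio went up by 3.31 (SD 0.20). Relative to 5C it changed by -4.17 (SD 0.55) in 5C-G. The difference from 5C was -2.29 (SD 0.28) in 5C-C, -0.79 (SD 0.35) in 5C-F and -0.42 (SD 0.41) in 5C-E, the last about the size of its SD. A ratio of this kind shows unequal change of both genes and does not say which of them moved.

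**Figure D2:**
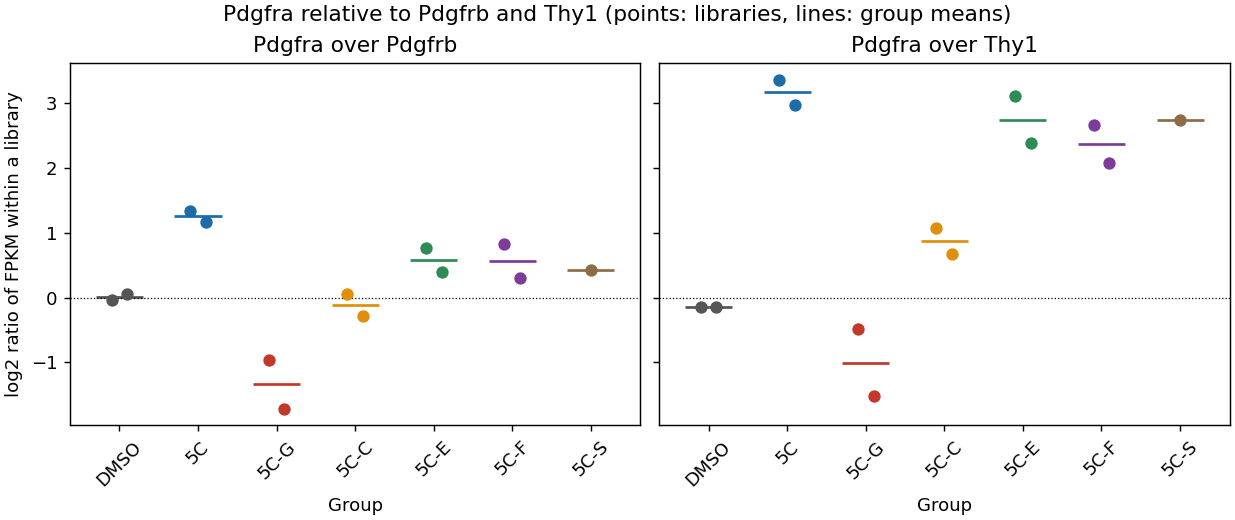
Log2 ratio of FPKM of Pdgfra over Pdgfrb (left) and over Thy1 (right) in each library (points) with group means (lines), where the dotted line marks equal FPKM. The DMSO libraries lay at -0.04 and 0.06 for Pdgfrb and both at -0.15 for Thy1, and the mean of 5C stood highest in both panels.

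Reln, a stellate cell marker, was nearly lost where the protein kinase D inhibitor was left out. The gene spans chr5:22089452-22549700 on the minus strand of GRCm39 and holds several lncRNAs and pseudogenes, whose reads may be counted with it. It measured 3.64 and 2.62 FPKM in DMSO, 2.47 and 2.26 in 5C, 0.884 and 0.472 in 5C-G, 0.0905 and 0.0832 in 5C-C, 0.516 and 0.388 in 5C-E, 3.50 and 2.78 in 5C-F and 0.923 in 5C-S. The counts behind these values ran from 65 and 90 in 5C-C to 3215 in 5C-F A, so the low group is well above a count of 0. The 5C-C libraries lay below all others, 5C-G and 5C-E overlapped above them, and 5C-F overlapped with DMSO at the top. Against 5C the log2 fold change was -4.60 ± 0.29 in 5C-C, -2.46 ± 0.26 in 5C-E, -1.69 ± 0.25 in 5C-G and 0.51 ± 0.24 in 5C-F, with -1.37 in the single 5C-S library. For 5C against DMSO it was -0.48 ± 0.24, smaller than the fold changes on leaving out C, E or G. These comparisons with 5C share the same 2 libraries of 5C.

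Lrat was low in every library. It measured 0.0613 and 0.0599 FPKM in DMSO, 0.546 and 0.633 in 5C, 0.238 and 0.0614 in 5C-G, 0.198 and 0.0984 in 5C-C, 0.221 and 0.0916 in 5C-E, 1.65 and 0.956 in 5C-F and 0.548 in 5C-S, from counts of 10 to 342. The 5C-F libraries lay above all others and the DMSO libraries were lowest, level with 5C-G B, while 5C-E, 5C-G and 5C-C overlapped. The log2 fold change was 3.19 ± 0.66 for 5C against DMSO, and against 5C it was 1.25 ± 0.57 in 5C-F, -1.98 ± 0.60 in 5C-E, -1.89 ± 0.60 in 5C-G and -1.85 ± 0.60 in 5C-C. The values moved with single libraries, to -1.26 in 5C-G without 5C-G B and -1.44 in 5C-C without 5C-C B, and with the GC and length offset, to -1.51 in 5C-G and -1.24 in 5C-C. On log2(FPKM + 1), which understates changes of low genes, they were 0.58 for 5C against DMSO and -0.47 in both 5C-G and 5C-C.

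The proteoglycan genes Dcn and Lum were abundant and changed by less than 1 on the log2 scale in every comparison. In the GENCODE annotation of GRCm39 they lie near each other on the plus strand, Dcn at chr10:97315275-97358155 and Lum at chr10:97400990-97408577. Dcn measured 328 and 319 FPKM in DMSO, 403 and 396 in 5C, 213 and 165 in 5C-G, 200 and 177 in 5C-C, 294 and 208 in 5C-E, 336 and 262 in 5C-F and 370 in 5C-S. Both 5C libraries lay above all others, and the groups from DMSO down to 5C-C overlapped each with its neighbour. The log2 fold change of Dcn was 0.23 ± 0.18 for 5C against DMSO, and -0.95 ± 0.19 in 5C-G, -0.92 ± 0.19 in 5C-C and -0.74 ± 0.19 in 5C-E against 5C. The 5C-G and 5C-C values were both -1.08 when libraries were scaled by total counts only, and without library A of 5C-G the 5C-G value was -1.05.

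Lum measured 48.9 and 51.3 FPKM in DMSO, 79.2 and 86.2 in 5C, 49.2 and 38.6 in 5C-G, 66.5 and 50.1 in 5C-C, 66.5 and 49.1 in 5C-E, 77.9 and 51.5 in 5C-F and 75.5 in 5C-S. As with Dcn, both 5C libraries lay above all others. Its log2 fold change was 0.65 ± 0.22 for 5C against DMSO and -0.79 ± 0.22 for 5C-G against 5C.

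Hgf was scarce, at 0.525 and 0.714 FPKM in DMSO, 0.415 and 0.616 in 5C, 0.644 and 0.145 in 5C-G, 0.221 and 0.232 in 5C-C, 0.596 and 0.571 in 5C-E, 0.165 and 0.132 in 5C-F and 0.448 in 5C-S, from counts of 38 to 160. The 5C-F and 5C-C libraries were low in both replicates, and the 2 libraries of 5C-G lay at opposite ends. Against 5C the log2 fold change was -1.69 ± 0.53 in 5C-F, -1.02 ± 0.51 in 5C-C and -0.31 ± 0.51 in 5C-G. The 5C-F value was -1.96 and -1.35 without 5C A and B, -1.90 and -1.50 without 5C-F A and B, and -1.16 with the offset. Without library A of 5C-G, the 5C-G value was -1.61.

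Vim was the most abundant of the set and varied 1.93-fold over all libraries. It measured 661 and 669 FPKM in DMSO, 573 and 675 in 5C, 781 and 960 in 5C-G, 717 and 610 in 5C-C, 496 and 524 in 5C-E, 773 and 572 in 5C-F and 661 in 5C-S. The 5C-G libraries lay highest and the 5C-E libraries lowest, with all groups between them overlapping. The log2 fold change was 0.62 ± 0.19 in 5C-G and -0.36 ± 0.19 in 5C-E against 5C, and -0.16 ± 0.19 for 5C against DMSO.

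S100a4 was uneven within groups, at 6.69 and 7.14 FPKM in DMSO, 3.16 and 7.19 in 5C, 4.58 and 4.97 in 5C-G, 2.04 and 7.02 in 5C-C, 2.44 and 1.42 in 5C-E, 4.33 and 5.70 in 5C-F and 3.06 in 5C-S. Libraries A and B of 5C and of 5C-C differed by more than most groups did from each other. The 5C-E libraries lay below those of 5C, 5C-S, 5C-G, 5C-F and DMSO but not below 5C-C A. The log2 fold change of 5C-E against 5C was -1.49 ± 0.57.

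Counted over the set, 2 members were called higher and 1 lower for 5C against DMSO, where 4.55% of all genes tested were called. A call means an adjusted p under 0.05 and a log2 fold change beyond 1. For 5C-G against 5C the counts were 1 higher and 3 lower (13.1% of all genes called), for 5C-C 0 higher and 3 lower (20.2%), for 5C-E 0 higher and 1 lower (1.96%) and for 5C-F 0 higher and 1 lower (4.84%). Since the set was chosen with these values known, the counts are a description beside the background, not a test of the members, and nothing is read from them. The median log2 fold change of the 10 genes was -0.03 for 5C against DMSO, -0.04 in 5C-F, -0.48 in 5C-E, -0.55 in 5C-G and -0.63 in 5C-C, beside medians of all genes between -0.01 and 0.01.

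**Figure D3:**
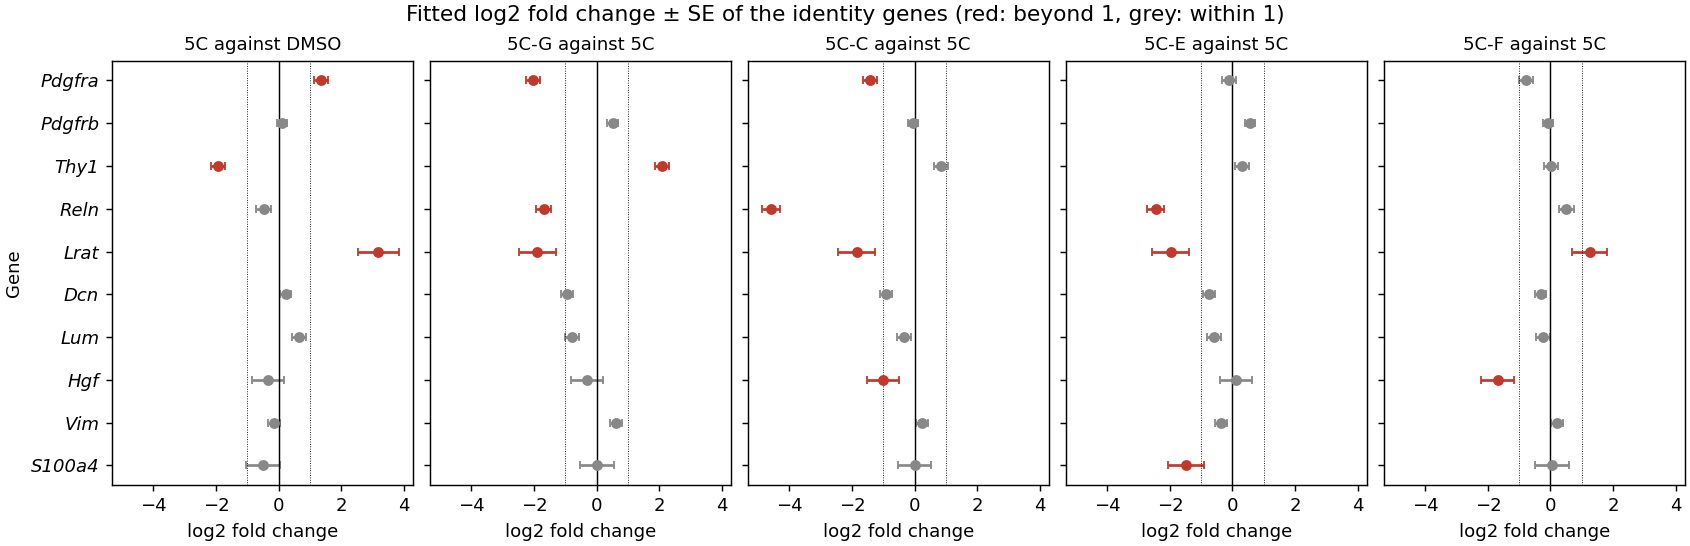
Log2 fold change (horizontal axes) with its SE (bars) of the 10 genes in each of the 5 comparisons, red where beyond the dotted lines at 1 and -1 and grey where within them. Reln in 5C-C, at -4.60, lay farthest from 0, and Pdgfra and Thy1 lay beyond the dotted lines on opposite sides of 0 in the first 2 panels.

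The genes most alike in pattern were sought for the 3 contrasted receptors and surface genes, as the root mean square difference of centred log2 CPM (counts scaled to the library total) over the 7 group means, among 12525 genes. For Pdgfra they were Bmf and Flrt2 (both 0.20), Vstm4 and Smarca1 (both 0.24) and Acnat1 (0.25), where Pdgfra itself varied by 0.72. For Pdgfrb they were Ankrd39 (0.07), Ldha-ps2 (0.08), Lrrc32 (0.13), 2700081O15Rik and Dot1l (both 0.14), against its own 0.30. For Thy1 they were Rab3il1 (0.20), Slc28a2 and Syk (both 0.27), Arhgap45 (0.29) and Map6 (0.30), against its own 0.84. None of the 3 receptors and surface genes appeared in the list of another.

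The other genes of the members' pathways were tested in the same edgeR quasi-likelihood fit, with Benjamini-Hochberg adjustment over all genes, and values are log2 fold changes ± SE. Of the 74 calls over the 7 lists and 5 comparisons, 22 were kept in every alternative fit, 41 were lost on leaving out at least 1 library and 2 (Lrp8 in 5C-E and S100a8 for 5C against DMSO) on leaving out any library. Of 8 PDGF ligands and co-factors, 1 was called lower and 0 higher for 5C against DMSO, 1 in each direction in 5C-G, 2 lower in 5C-C and 0 in 5C-E and 5C-F, where 4 and 5 of them had an unadjusted p under 0.05 and DESeq2 and limma also called 0. Pdgfd, a ligand of the beta receptor, fell by 1.59 ± 0.26 in 5C-G (adjusted p = 0.000332) and by 1.26 ± 0.25 in 5C-C (adjusted p = 0.00104). Pdgfc, a ligand of the alpha receptor, fell by 1.18 ± 0.22 in 5C-C (adjusted p = 0.000631), from 36.7 and 38.2 FPKM in 5C to between 12.3 and 17.2. Nrp1, a co-receptor, fell by 1.20 ± 0.19 with 5C against DMSO (adjusted p = 0.000504) and was higher by 1.06 ± 0.19 in 5C-G (adjusted p = 0.00082). The matrix protein Sparc, which binds PDGF, was called nowhere, with 0.71 ± 0.18 in 5C-C. In 5C-F Pdgfd (-0.93 ± 0.25, adjusted p = 0.0265) and Pdgfc (-0.73 ± 0.22, adjusted p = 0.0424) missed only the fold threshold. With total counts only Pdgfd was called lower in 5C-F (-1.03), and without 5C-F A Pdgfc stood at -1.10 there. The Pdgfc call was lost without 5C-C B (-0.98), the Nrp1 call for 5C against DMSO with limma on log2(FPKM + 1) (-0.99), that in 5C-G without 5C-G B (0.84), with total counts only (0.92) or with limma, and the Pdgfd call in 5C-C with the GC and length offset (-0.63).

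Of 6 reelin receptors and adaptors, 0 were called for 5C against DMSO, 1 lower in 5C-G, 1 lower in 5C-C, 1 higher in 5C-E and 0 in 5C-F. At an unadjusted p under 0.05 there were 1 for 5C against DMSO and 2 in 5C-F, with 0 and 1 called by DESeq2 and 0 by limma. The reelin receptor Vldlr fell by 1.20 ± 0.23 in 5C-G (edgeR adjusted p = 0.00118), to at most 6.0 FPKM from at least 10.9 in 5C. The adaptor Crkl fell by 1.01 ± 0.22 in 5C-C (adjusted p = 0.0022), and Crk (-0.96 ± 0.23) and Dab2 (-0.88 ± 0.15) lay just under the fold threshold there. With total counts only (Crk -1.12, Dab2 -1.04) and with limma at either pseudocount the 1 lower call in 5C-C became 3, while DESeq2 left Crkl at -0.98 and called 0. The reelin receptor Lrp8 gave the higher call in 5C-E, at 1.68 ± 0.44 (adjusted p = 0.0459), which was lost on leaving out any of the 4 libraries (adjusted p between 0.112 and 0.37), with limma and with the offset (adjusted p = 0.0501). The Vldlr call was lost without 5C-G B (-0.95) and with the offset (-0.71), and the Crkl call in 6 of 11 alternative fits, which besides DESeq2 were those without 5C B (-0.96), without 5C-C B (-0.69), without the filter (-0.99), with both groups fitted alone (-1.0) and with the offset (-0.82).

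Of 9 genes of HGF reception and activation, 1 was called higher for 5C against DMSO, 1 higher and 2 lower in both 5C-G and 5C-C, 0 in 5C-E (3 at an unadjusted p under 0.05, 1 by DESeq2, 0 by limma) and 2 higher in 5C-F. Met, the HGF receptor, stood at 10.5 and 11.4 FPKM in DMSO, 19.7 in both 5C libraries, between 4.50 and 8.92 in 5C-G and between 5.05 and 7.57 in 5C-C. It fell by 1.45 ± 0.24 in 5C-G (edgeR adjusted p = 0.000355) and by 1.49 ± 0.24 in 5C-C (adjusted p = 0.0002), the latter with -0.90 under the offset. Plau, a protease that can activate HGF, fell by 1.21 ± 0.27 in 5C-G (adjusted p = 0.00381, 0.0532 without 5C-G B) and by 1.63 ± 0.28 in 5C-C (adjusted p = 0.000309). Spint1, an inhibitor of HGF activation, rose by 1.72 ± 0.32 with 5C against DMSO (adjusted p = 0.002, and 0.0587 without DMSO A), while Spint2 (0.48 ± 0.16) was not called, and with no filter on low counts the 1 higher call there became 3. The higher calls in 5C-F were Hgfac, the HGF activator protease (1.30 ± 0.23, adjusted p = 0.00234), and Hpn, the protease hepsin (1.04 ± 0.18, adjusted p = 0.00263). Under the offset both lay under the fold threshold (0.94 and 0.69), and Hpn did so too with total counts only (0.94) or limma and was lost without 5C B. The higher calls of Plaur, the receptor of Plau, in 5C-G (1.05 ± 0.26) and of the protease gene St14 in 5C-C (1.15 ± 0.32) were lost in 8 and 4 of 11 alternative fits, and the 2 lower calls in 5C-G became 4 under the offset.

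Of 17 retinoid handling genes tested, 1 was called higher and 1 lower for 5C against DMSO, 1 and 2 in 5C-G, 4 and 1 in 5C-C, 1 and 1 in 5C-E, and 1 and 0 in 5C-F. Rarres1, a retinoic acid-responsive gene, rose by 2.09 ± 0.23 with 5C (edgeR adjusted p = 6.93e-06) and fell by 1.87 ± 0.22 in 5C-G (adjusted p = 2.03e-05). Dhrs3, a retinaldehyde reductase, went the other way, by -1.28 ± 0.25 with 5C (adjusted p = 0.00297, and 0.0884 without 5C B) and 2.14 ± 0.25 in 5C-G (adjusted p = 1.79e-05). Aldh1a2, which makes retinoic acid, rose by 1.22 ± 0.20 in 5C-C (adjusted p = 0.000212). Rbp4, the plasma retinol carrier secreted by hepatocytes, fell by 1.46 ± 0.17 in 5C-E (adjusted p = 5.71e-05), to 223 and 247 FPKM from 616 and 621 in 5C. The higher call in 5C-E was Cyp26b1, which degrades retinoic acid (2.36 ± 0.44, adjusted p = 0.00556). It was lost without 5C A or 5C-E B and with limma on log2(FPKM + 0.1). That in 5C-F was Dhrs3 (1.08 ± 0.25, adjusted p = 0.0128), lost with total counts only (0.98), limma or the offset (0.82) and without 5C A, 5C B or 5C-F B (adjusted p = 0.052, 0.162 and 0.129). The 4 higher calls in 5C-C became 2 without 5C-C B, with total counts only, with the offset or with limma on log2(FPKM + 0.1), and 0 with limma on log2(FPKM + 1). The lower call in 5C-C, Aldh1a3 (-2.40 ± 0.85, adjusted p = 0.0354), was lost in 5 of 11 alternative fits, and the lower count became 3 without 5C-C A. Stra6l, a lower call in 5C-G (-1.14 ± 0.24, adjusted p = 0.00265), was lost in 4 of 11.

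Of 9 small leucine-rich proteoglycans other than Dcn and Lum, 1 was called higher for 5C against DMSO, 3 lower in 5C-G, 1 higher and 3 lower in both 5C-C and 5C-E, and 0 in 5C-F (1 at an unadjusted p under 0.05, 0 by DESeq2 and by limma). The list's median log2 fold change was -1.54 in 5C-G and -1.22 in 5C-C. Fmod (fibromodulin) stood at 15.3 and 17.8 FPKM in the 5C libraries and between 1.66 and 2.49 in 5C-G, so that it fell by 2.88 ± 0.26 (edgeR adjusted p = 1.19e-06). Ogn (osteoglycin) fell by 2.61 ± 0.26 in 5C-C (adjusted p = 5.29e-06) and by 1.56 ± 0.25 in 5C-G (adjusted p = 0.00026, and -0.86 under the offset). Omd (osteomodulin), at most 1.74 FPKM in any library, fell by 4.09 ± 0.64 in 5C-E (adjusted p = 0.00106). Podn (podocan) rose by 1.36 ± 0.20 in 5C-C (adjusted p = 0.000106) and by 1.15 ± 0.20 in 5C-E (adjusted p = 0.00239), and under the offset it stood at 0.80 and 0.93. The higher call for 5C against DMSO was Ogn (1.12 ± 0.24, adjusted p = 0.00711), lost with the offset (0.92) and without DMSO A, DMSO B or 5C B (adjusted p = 0.0805, 0.0829 and 0.0953). In 5C-E the 3 lower calls became 1 without 5C B or 5C-E B or with limma, and the Podn call was lost without 5C A (adjusted p = 0.0803).

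Of 12 S100 genes tested other than S100a4, 1 was called lower for 5C against DMSO, 5 higher in 5C-G, 8 higher in 5C-C and 0 in 5C-E and 5C-F, where 1 and 2 had an unadjusted p under 0.05 and DESeq2 and limma called 0. S100a6 stood at 333 and 391 FPKM in the 5C libraries, 1009 and 1189 in 5C-G and 544 and 1072 in 5C-C, a rise of 1.75 ± 0.27 in 5C-G (edgeR adjusted p = 0.000233). S100a13 rose by 1.75 ± 0.31 in 5C-G and 1.70 ± 0.31 in 5C-C (adjusted p = 0.000667 and 0.000492), and S100a16 by 1.45 ± 0.22 and 1.36 ± 0.22 (adjusted p = 0.00022 and 0.000246). S100a10 rose by 1.29 ± 0.23 in 5C-G (adjusted p = 0.00082) and 1.24 ± 0.23 in 5C-C (adjusted p = 0.000616). The lower call for 5C against DMSO was S100a8, a calgranulin of neutrophils (-2.23 ± 0.64, adjusted p = 0.0434), lost with total counts only (adjusted p = 0.0518) and on leaving out any of the 4 libraries (adjusted p between 0.0819 and 0.346). Fewer were called in 5C-G without 5C-G B, where S100a10 stood at 0.94, and in 5C-C without 5C-C B. There S100a10 stood at 0.91, S100a16 at 0.98 and S100a6 at 0.72. S100a4 itself measured 0.02 ± 0.54 in 5C-G and 0.00 ± 0.54 in 5C-C, an SE too wide to tell whether it shared the rise.

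Of 11 intermediate filament genes other than Vim, 1 was called lower for 5C against DMSO, 3 higher and 1 lower in 5C-G, 6 higher and 2 lower in 5C-C, 1 higher in 5C-E and 4 higher in 5C-F. The epithelial keratin Krt18 rose by 1.48 ± 0.20 in 5C-C (edgeR adjusted p = 7.5e-05) and by 1.81 ± 0.21 in 5C-F (adjusted p = 0.000115), and Krt19 by 1.68 ± 0.19 in 5C-C (adjusted p = 1.78e-05). Lmna, which encodes lamin A and C, rose by 1.74 ± 0.24 in 5C-G (adjusted p = 7.73e-05), and Des (desmin), the muscle and stellate cell filament, by 2.64 ± 0.24 (adjusted p = 1.03e-06). The 6 higher calls in 5C-C became 1 with the GC and length offset, among those lost Krt18 at 0.73 and Krt19 at 0.88. The 4 in 5C-F became 2 without 5C B, and the 2 lower calls in 5C-C (Synm and Gfap) became 1 or 0 on leaving out any library. Des was also the lower call for 5C against DMSO (-1.13 ± 0.23, adjusted p = 0.00369), lost without 5C A or 5C B (adjusted p = 0.061 and 0.0526). It was the higher call in 5C-E too (1.05 ± 0.23, adjusted p = 0.0151), lost with the offset (0.82) and without 5C A, 5C B or 5C-E B (adjusted p = 0.173, 0.137 and 0.279).

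Markers of the cell types that could hold these genes were then read as a check on the name of the set. Among the stellate cell markers, Gfap, Ngfr, Hhip, Vipr1 and Bmp5 stayed between 0 and 0.931 FPKM in all libraries, as low as Lrat. Des (13.8 to 105), Hand2 (11.7 to 44.6) and Bco1 (16.1 to 36.6) were present in every library. So were Colec11 (5.26 to 17.1), Cygb (at least 5.45) and Nes (1.5 to 8.2). Of the 16 stellate markers tested, 3 were called higher and 2 lower for 5C against DMSO, 5 and 3 in 5C-G, 3 and 4 in 5C-C, 1 and 2 in 5C-E and 2 and 0 in 5C-F, so that the list moved in both directions. The 5 in 5C-G became 3 without 5C-G B, with the offset or with limma on log2(FPKM + 1), and the 3 higher in 5C-C became 0 with the offset. The 2 lower calls for 5C against DMSO became 1 or 0 on leaving out any library. The mesothelial genes Msln, Upk1b, Upk3b, Wt1, Gpm6a and Lrrn4 were all between 15.5 and 456 FPKM in every library. Mesothelium is the cell layer that covers the liver surface. Within that range the log2 fold change of Gpm6a against 5C was -1.02 ± 0.30 in 5C-G (edgeR adjusted p = 0.0195, lost without 5C B or 5C-G B and with the offset). It was -1.77 ± 0.31 in 5C-C (adjusted p = 0.000382) and -1.31 ± 0.30 in 5C-F (adjusted p = 0.0135, lost without 5C A, 5C B or 5C-F B and with limma). Lrrn4 measured -1.0 ± 0.20, -1.19 ± 0.20 and -1.17 ± 0.20 in these groups, the last 2 called (both lost with the offset, and that in 5C-C also without 5C-C B), while Msln was higher in 5C-G, by 1.49 ± 0.17 (adjusted p = 1.12e-05). In 5C-E, where Pdgfra was about the same, Gpm6a was -0.81 ± 0.30 and not called. For 5C against DMSO, where Pdgfra was higher, Gpm6a (0.41 ± 0.30) and Lrrn4 (0.04 ± 0.20) were not called. Upk1b measured 0.72 ± 0.17, 0.17 ± 0.17 and -0.3 ± 0.17 in 5C-G, 5C-C and 5C-F. Upk3b measured 0.33 ± 0.17, -0.06 ± 0.17 and -0.53 ± 0.17 there, neither called. Wt1 measured -0.28 ± 0.22, -0.8 ± 0.22 and -1.09 ± 0.22 there, called in 5C-F only (lost without 5C A, 5C B or 5C-F B). Of the 18 portal fibroblast and mesothelial markers, 2 were called higher and 0 lower for 5C against DMSO, 2 and 3 in 5C-G, 4 and 3 in 5C-C, 1 and 1 in 5C-E and 1 and 4 in 5C-F. The 4 lower calls in 5C-F became 2 without 5C A or 5C B, the 3 in 5C-C became 5 without 5C-C A and the 4 higher ones in 5C-C became 1 with the offset. The general fibroblast genes Col1a1 (298 to 870 FPKM) and Ccdc80 (618 to 1042) were high and Fap was at most 0.109. The 21 myofibroblast and fibroblast markers summed to 3301 to 3305 FPKM in DMSO, 3711 to 3737 in 5C, 3510 to 3759 in 5C-G, 5656 to 5941 in 5C-C, 5257 to 5434 in 5C-E, 2251 to 2260 in 5C-F and 4314 in 5C-S. This sum was thus higher than in 5C in 5C-C and lower in 5C-F, while the log2 fold change of Pdgfra was -1.43 ± 0.22 and -0.77 ± 0.22 there. Timp1, an inhibitor of matrix metalloproteinases, alone went from 257 FPKM in both 5C libraries to 1835 and 2621 in 5C-C (3.28 ± 0.24, edgeR adjusted p = 3.52e-07), and the list's median log2 fold change in 5C-C was 0. In the list 0 were called higher and 1 lower for 5C against DMSO (0 lower on leaving out any library), 1 and 1 in 5C-G, 3 and 1 in 5C-C (3 lower without 5C-C A), 4 and 0 in 5C-E and 0 and 4 in 5C-F. The 4 in 5C-E became 2 without 5C A or 5C B and 1 without 5C-E B, and the 4 in 5C-F became 1 without 5C A and 2 without 5C B or 5C-F B. Of the portal fibroblast genes, Dpt, Clec3b, Pi16 and Gli1 reached no more than 1.36, while Fbln2 (139 to 391 FPKM), Cd34 (12.3 to 21.7), Fbln1 (3.33 to 19.9), Entpd2 (3.04 to 12) and Mfap4 (1.38 to 14.3) were present in every library and Mfap5 and Eln lay between 0.871 and 7.8. The name of stellate cell genes therefore holds for part of its markers only, and the source of the 10 transcripts in these cultures, hepatocyte or other, was not tested.

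The macrophage list was high where Thy1 was high, in DMSO and 5C-G, but did not follow it in every group. Its summed FPKM over 13 genes was 5492 to 5558 in DMSO, 596 to 688 in 5C, 5534 to 7764 in 5C-G, 1110 to 1838 in 5C-C, 811 to 948 in 5C-E, 1861 to 2200 in 5C-F and 701 in 5C-S. For 5C against DMSO 12 of the 13 were called lower, in 5C-G 12 were called higher, in 5C-C 6 higher and 1 lower, in 5C-E 0 (5 at an unadjusted p under 0.05, 0 by DESeq2 and by limma) and in 5C-F 10 higher. In 5C-E the macrophage gene C1qa, at 1.32 ± 0.36 (edgeR adjusted p = 0.0557), was called higher in some alternative fits. These were total counts only (1.39), no filter (1.35), both groups fitted alone (1.33) and the offset (1.05). In 5C-F, where 10 macrophage genes were higher than in 5C, Thy1 stood at 0.01 ± 0.23. The Kupffer cell gene Clec4f reached no more than 0.784 FPKM, while Vsig4 (21 to 172 FPKM) and Marco (1.27 to 36.7), which Kupffer cells also express, were present in every library. The 7 T and NK cell genes found, of 12 in that list, summed to at most 1.56 FPKM, with 0 of the 3 tested called by edgeR, DESeq2 or limma or below an unadjusted p of 0.05 in any comparison. The part of macrophages in the Thy1 and S100a4 values was not tested.

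Smooth muscle and pericyte markers summed to 294 to 345 FPKM in DMSO, 241 to 257 in 5C, 809 to 1076 in 5C-G, 52.4 to 63.7 in 5C-C, 60.7 to 68.1 in 5C-E, 124 to 127 in 5C-F and 105 in 5C-S. Acta2, smooth muscle actin, made up most of each sum, at 746 and 991 FPKM in 5C-G and 33.2 and 44.1 in 5C-C. Of these 13 genes 1 was called higher and 3 lower for 5C against DMSO, 6 and 2 in 5C-G (3 higher without 5C A), 1 and 8 in 5C-C, 0 and 6 in 5C-E and 0 and 3 in 5C-F. The 3 lower calls became 1 without 5C A for 5C against DMSO, and in 5C-F became 0 without 5C B and 1 without 5C A or 5C-F A. Pdgfra was lower in both 5C-G and 5C-C, while most calls of this list were higher in 5C-G and lower in 5C-C. Hepatocyte markers summed to 15780 to 17127 in DMSO, 16392 to 16475 in 5C, 9975 to 11588 in 5C-G, 10441 to 11768 in 5C-C, 6641 to 7408 in 5C-E, 23812 to 28949 in 5C-F and 12484 in 5C-S, with Alb at 2122 FPKM or more in every library. Alb alone was 13341 and 18255 FPKM in 5C-F, where its log2 fold change against 5C was 0.85 ± 0.19 and 2 of the 15 hepatocyte markers were called higher and 0 lower (1 higher with total counts only or limma, 3 with DESeq2). For 5C against DMSO 0 were called higher and 2 lower, in 5C-G 2 and 7, in 5C-C 1 and 6 and in 5C-E 0 and 6. Of 12 endothelial markers, the defining genes Pecam1, Cdh5, Tie1, Tek and Emcn were at most 0.262 FPKM, while Eng (17.9 to 57.8), Lyve1 (2.82 to 77.3), Kdr (3.1 to 23) and Egfl7 (0.914 to 6.07), which other cells can express, were present. Their list summed to 97.3 to 110 FPKM in DMSO and 81.9 to 105 in 5C-G, the groups with high Thy1, and to 41.8 to 42.8 in 5C and between 45.9 and 63 in the other groups. Of the 12 genes 1 was called lower for 5C against DMSO, 2 in each direction in 5C-G, and 1 higher in each of 5C-C, 5C-E (0 on leaving out any library) and 5C-F. Of 10 cholangiocyte markers 3 were called higher for 5C against DMSO (1 without either DMSO library or 5C A), where Pdgfra was higher, and 5 lower in 5C-G (3 without 5C A), where it was lower. The list's median log2 fold change was 1.03 and -1.73 in these comparisons. It was 0.75 in 5C-C and 0.77 in 5C-F, where Pdgfra was lower than in 5C, and 0.11 in 5C-E. In 5C-C 1 was called higher (4 without the filter or with both groups fitted alone). In 5C-F 1 was called higher and in 5C-E 0 (2 at an unadjusted p under 0.05, 0 by DESeq2 and by limma). Spp1 (osteopontin) was 1318 to 3243 FPKM and carried the list's sum, which went from 2606 to 2966 in DMSO to 1666 to 2015 in 5C. The part of these cell types in the levels of the identity genes was not tested.

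**Figure D4:**
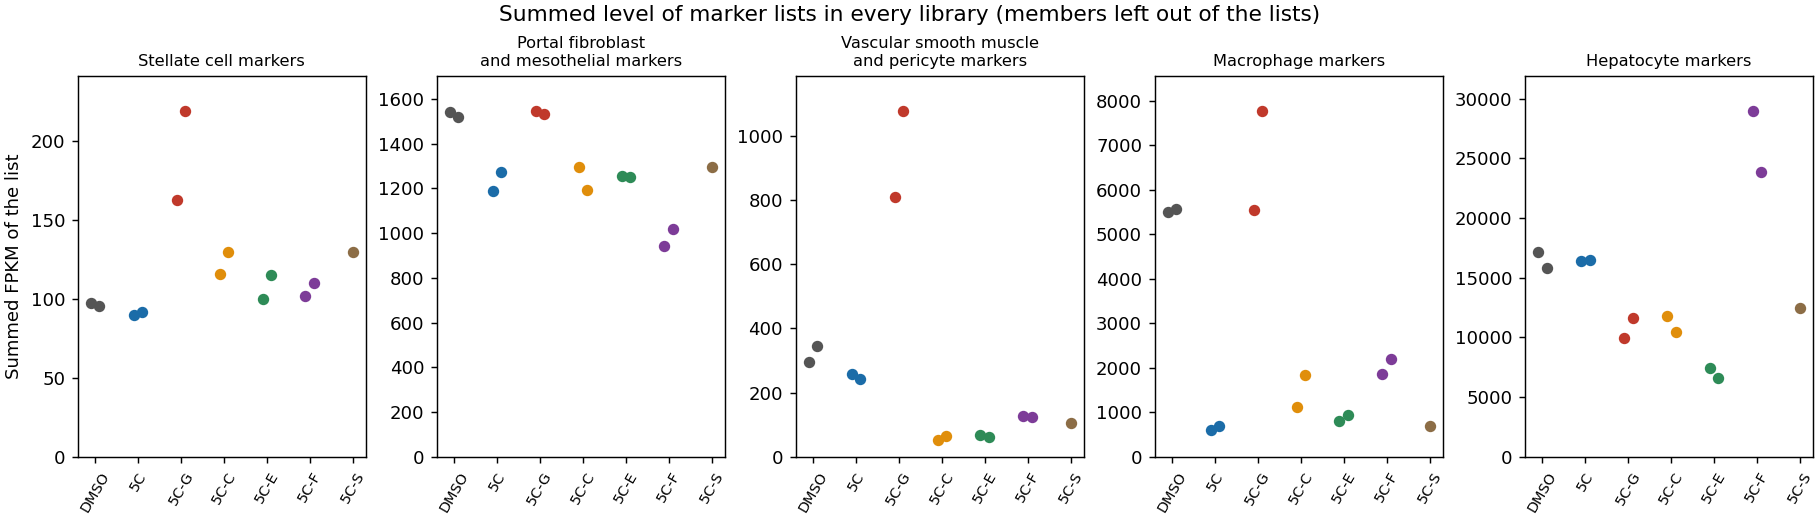
Summed FPKM (vertical axes, linear from 0) of 5 marker lists, with the identity genes left out, in each library (points) of the 7 groups. Macrophage markers were high in DMSO and 5C-G, smooth muscle and pericyte markers (mostly Acta2) in 5C-G, and hepatocyte markers (mostly Alb) in 5C-F.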

How the data were processed

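RNA from 13 libraries was measured by paired-end sequencing. The authors mapped the reads to GRCm39, and the submitters' processing notes name featureCounts, Subread and DESeq2. The deposited counts were whole numbers per gene, not normalized. The FPKM values deposited by the authors were these counts divided by the library total and by 1 length per gene, within 0.2% for all 27140 genes in both tables. Strand handling is not given in the sources used here, so genes with overlapping transcripts (Pdgfra, Reln, Lrat, Hgf, Vim and S100a4) are uncertain. Total counts ran from 30195867 to 45491932, which limits precision for Lrat, Hgf and S100a4. Columns of per-sample values left unused numbered 0. Columns name the group but not the sample, so A and B follow column order and pair nothing.

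Counts were tested with edgeR 4.0.16 in R 4.3.3 (TMM, filterByExpr with a minimum count of 10, glmQLFit and glmQLFTest) in a single fit of all libraries, with 6 residual degrees of freedom. Calls needed an adjusted p (Benjamini-Hochberg) under 0.05 with a log2 fold change beyond 1. The study's methods name DESeq, and DESeq2 1.42.0 was an alternative, as were limma 3.58.1 on log2(FPKM + 1) and log2(FPKM + 0.1), total counts only, no filter, fits of the 2 groups alone, an unadjusted p, an offset for GC content and length (19787 of 19884 genes had both), and leaving out each library in turn. The 5C-S library has no test. The tests were checked on data with known changes. A gene of the lists is not reported here and was left out of their counts and sums. The members and lists were chosen with earlier results of these data known. All members are named, from each pathway list up to 4 genes with the lowest adjusted p, from marker lists those at or near 0 and examples chosen after their values were seen, as were the genes named for single calls of a list, and for Pdgfra, Pdgfrb and Thy1 the 5 genes most alike in pattern among those with a mean of at least 1 FPKM (log2 CPM, prior count 2).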

Additional observations from a re-analysis of the deposited data

How the results depend on the processing

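Of 550 fold changes of members under an alternative, 482 moved by no more than 1 SE, 68 moved further and 0 called values changed sign. The members called in 5C-E against 5C became 2 (Reln and Lrat) with DESeq2, with no filter and with only both groups in the fit, and 3 by unadjusted p. Those in 5C-F against 5C became 2 with only both groups in the fit and by unadjusted p, and 0 with limma at either pseudocount and with the GC and length offset, which gave 1 in 5C-C. All genes called numbered 905 for 5C against DMSO, then 2607 on leaving out G, 4011 without C, 390 without E and 962 without F. These became 569, 1376, 2318, 217 and 341 with limma on log2(FPKM + 1). The 5C-F count was 619 with limma on log2(FPKM + 0.1) and the 5C-C count 2304 with the offset. Fits of both groups alone gave 1371 for 5C against DMSO and 642 in 5C-E, and unadjusted p gave 1532, 877 in 5C-E and 1672 in 5C-F. List genes called were 7, 21, 31, 8 and 7 in the same order, chosen as a count after seeing the data. The 5C-E count became 5 and 4 with limma at pseudocounts of 1 and 0.1, and the 5C-F count 4 at both. The offset gave 20 in 5C-C and 4 in 5C-F, and unadjusted p gave 11 in 5C-F. With 1 added to each FPKM, the difference of the Pdgfra to Thy1 log2 ratio between 5C and DMSO was 2.98. The cause of these changes was not tested.

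Leaving out each library in turn, where a lone library is assumed to vary like the other groups, gave ranges of 2 to 3 members called for 5C against DMSO, and, for the removal of G, C, E and F in turn, of 3 to 6, 2 to 3, 1 and 0. All genes called ranged from 616 to 652, 1395 to 3945, 2816 to 4980, 138 to 393 and 294 to 953, and list genes called from 4 to 6, 14 to 27, 20 to 33, 3 to 8 and 3 to 11. The Pdgfra to Pdgfrb difference ranged from 1.16 to 1.33 for 5C against DMSO, -2.97 to -2.21 in 5C-G, -1.53 to -1.20 in 5C-C, -0.85 to -0.49 in 5C-E and -0.95 to -0.42 in 5C-F, and the Pdgfra to Thy1 difference from 3.12 to 3.51, -4.68 to -3.66, -2.49 to -2.09, -0.79 to -0.06 and -1.08 to -0.51. No paired analysis was possible because the columns carry no number that ties them to a sample. Counts of at most 342 (Lrat), 160 (Hgf) and 187 (S100a4) a library limit what can be said of these genes.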

Other observations

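The stellate cell transcription factor Tcf21, picked out after its values were seen, stood at 0.601 to 0.791 FPKM in DMSO, 5.54 to 6.16 in 5C, 0.466 to 1.07 in 5C-G, 0.0281 to 0.224 in 5C-C, 0.704 to 1.12 in 5C-E, 3.35 to 4.94 in 5C-F and 5.66 in 5C-S. In edgeR's test with Benjamini-Hochberg adjustment it rose by 2.99 ± 0.51 on the log2 scale with 5C against DMSO (adjusted p = 0.000847). Against 5C its log2 fold change was -5.23 ± 0.59 in 5C-C (adjusted p = 1.57e-05) and -2.82 ± 0.50 in 5C-G (adjusted p = 0.000743). In 5C-E it was -2.75 ± 0.50 (adjusted p = 0.00432, and not called without 5C-E B, at -2.45). The count of Tcf21 was at most 486 in any library. Its 5C-C values lay near 0 and differed between the libraries, so the size of the fold change there is uncertain. Both Tcf21 and Reln were lowest in the 2 libraries of 5C-C. Hand2, another transcription factor of stellate cells, was higher in that group, by 1.81 ± 0.24 (adjusted p = 5.49e-05, and 0.99 with the GC and length offset), and in 5C-G, by 1.49 ± 0.24 (adjusted p = 0.000274, and 0.92 with that offset). In 5C-G, 5 stellate cell markers of 16 had higher calls and 3 had lower ones.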
